A study of Mus musculus with 18 samples.

Results

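The immunoglobulin heavy variable (IGHV) probes of a mouse expression array were followed in whole aortas. A probe belonged to the set if its target name began with IGHV and if its detection score exceeded 0.95 on 5 or more of 18 arrays. Of 136 IGHV probes, 30 met this rule, among 21434 probes that met the same detection rule in the whole array of 46624. Every mouse was a male ApoE-/- animal, the control mice included, and was 13 to 14 weeks old when a pump was implanted. Angiotensin II at 1.44 μg/kg/min was given for 4 weeks to 12 mice, of which 5 developed an abdominal aortic aneurysm (AAA) and 7 did not (no AAA). A further 6 mice received saline for the same time. The infused groups were formed by outcome and not by assignment. Arrays were assigned through the array numbers in the sample labels. A deposited matrix of ratios disagrees, as its columns for AAA 1 to 5 and for no AAA 1 to 5 hold each other's arrays, and an assignment by that matrix would exchange these 10 aortas. Each array held the RNA of 1 aorta, which was homogenised whole, so a level averages over vessel wall, fat and any attached or infiltrating cells.

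The variable domain of an antibody heavy chain is encoded by a variable, a diversity and a joining segment, which a developing B cell brings together by cutting and rejoining its DNA. A B cell and its descendants therefore carry the variable segment that was chosen once, and a mixed population of B cells and plasma cells expresses many segments at different levels. In the mouse the variable segments are sorted into families by sequence likeness, of which IGHV1 (J558) is by far the most numerous. Segments of 1 family can be near-identical, so a probe may take up RNA of related segments and levels within a family are not independent. In RefSeq annotation of build GRCm38.p6 the heavy chain locus lies on chromosome 12 from 113258768 to 116009954 and lists 183 variable entries, of which 63 are pseudogenes. None of the 30 probe names (0 matches) occurs there as a symbol or synonym, so no position is given for a single segment.

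The 30 probes came from 11 of the 15 families on the array. Of 70 IGHV1 probes 13 passed, of 25 IGHV5 probes 4, of 8 IGHV8 probes 4 and of 4 IGHV14 (SM7) probes 2. A single probe each passed from IGHV2 (Q52), IGHV3, IGHV6 (J606), IGHV9 (VGAM3.8), IGHV10, IGHV11 and IGHV12, the last a pair of small families known for their use by mouse B-1 cells that bind phosphatidylcholine. No IGHV4, IGHV7, IGHV13 or IGHV15 probe passed. Each level below is the log2 of the signal over the median signal of its array. That median lay close to background, because an array detected 40.0 to 45.2% of its probes, and the lowest detected signals lay 0.12 to 0.25 above it.

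No IGHV probe was detected on every array. The most widely detected one was found on 13 arrays, and 52 of the 136 were found on none. The aortas differed widely in how many they showed. The AAA arrays 1 to 5 detected 18, 25, 63, 63 and 26 of the 136 probes. The no AAA arrays detected 4 to 13 (median 8). The saline arrays 1 to 6 detected 27, 61, 18, 6, 2 and 4. By construction 5% of negative controls exceed the detection score used, which corresponds to 6.8 of 136 probes. The no AAA arrays, with 13 at most, and saline 4 to 6 lay closest to that nominal number, and every AAA array and saline 1 to 3 lay further above it. In whole aorta, fewer B lineage cells and less of this RNA per cell cannot be told apart.

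**Figure D1:**
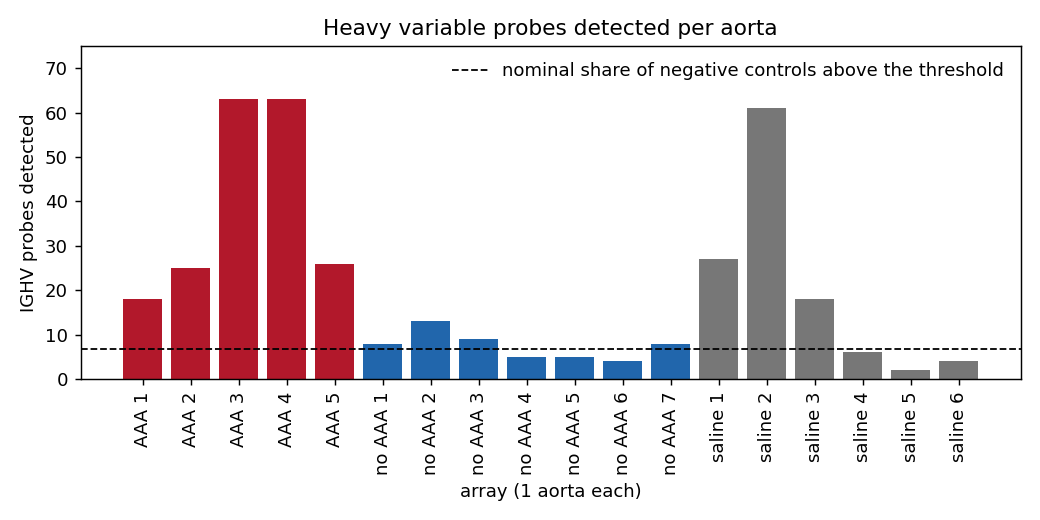
IGHV probes detected (score above 0.95) of the 136 on the array, as bars from 0 for each of the 18 aortas, with the nominal 6.8 as a dashed line. AAA 3, AAA 4 and saline 2 stand highest at 63, 63 and 61, and the 7 no AAA arrays lie between 4 and 13.

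The detection rule weighed on which probes could be described. Each of the 30 was detected on at least 1 AAA array, 12 were detected on none of the 7 no AAA arrays and 17 were found in each of the 3 groups. Without the AAA arrays 10 would have reached 5 detections, and without saline 2 it would have been 22. A probe high in AAA aortas had a better chance of passing, so counts over the 30 describe them and lend no weight to a group difference. The 9 probes detected on exactly 5 arrays had their highest level between 0.83 and 3.09, and the 16 left out with exactly 4 detections between 1.05 and 4.13.

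The same 3 aortas led for most of the 30 probes. AAA 3, AAA 4 or saline 2 held the highest level for 28 of them, against 14.1% of all tested probes, and these arrays were singled out after the values had been seen. The median level over the 30 probes was 2.43 in saline 2, 1.92 in AAA 4 and 1.62 in AAA 3. It was 0.46, 0.35 and 0.19 in AAA 5, 2 and 1, 0.29 in saline 1 and between -0.14 and 0.12 in the other 11 arrays. More than 1 log2 unit was reached by 25 probes in saline 2, 26 in AAA 4 and 21 in AAA 3, and by none on any no AAA array (0 of 30). Within a group the spread between mice was large. The median SD of a probe was 0.82 among AAA arrays and 1.03 among saline arrays, against 0.17 among no AAA arrays. Over all tested probes these SDs were 0.21, 0.16 and 0.19. In no AAA the median probe of the 30 was detected on 1 of 7 arrays, so 0.17 mostly describes readings near background. The standard error of the beads behind a signal was 6.73% of the signal at the median (2.99 to 21.3%).

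**Figure D2:**
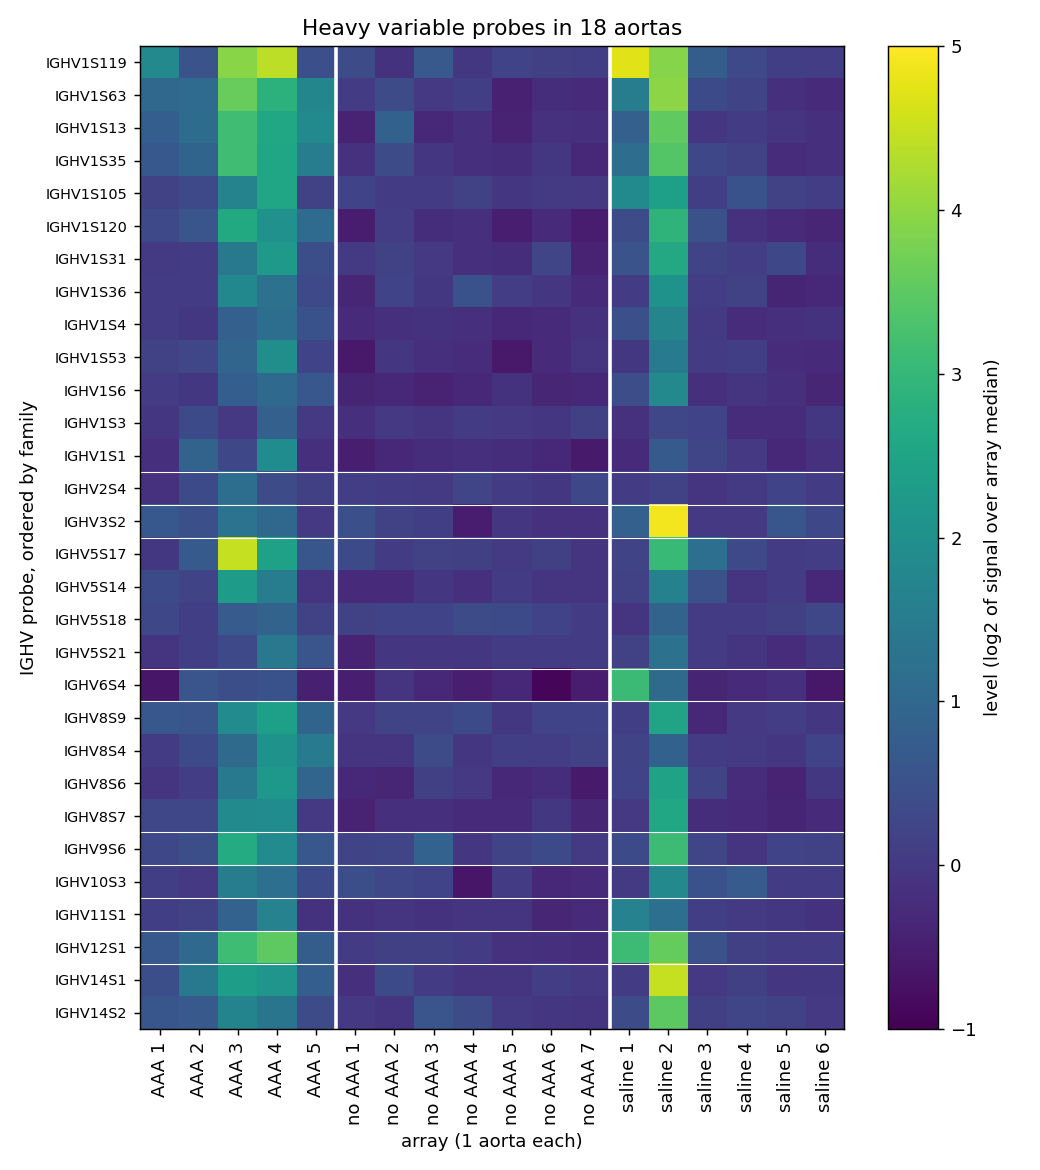
Level (log2 of signal over array median, colour scale from -1 to 5) of the 30 IGHV probes, in rows ordered by family and then by mean level, in the 18 aortas in columns. AAA 3, AAA 4 and saline 2 are bright for most rows, saline 1 for a few, and no cell of the no AAA columns exceeds 1.

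IGHV1 (J558) is described first. IGHV1S119 differed widely between aortas within a group. Its AAA levels were 1.82, 0.53, 3.93, 4.40 and 0.46. Its no AAA levels ran from -0.13 to 0.67 (median 0.13), and its saline levels from 0.09 to 4.72 (median 0.55). The highest aorta of all was saline 1 at 4.72, followed by AAA 4, AAA 3 and saline 2 at 3.92, and the AAA range overlapped both other groups. AAA exceeded no AAA by 2.04 (SE 0.80), which did not pass (adjusted p = 0.083, limma with Benjamini-Hochberg adjustment over all tested probes).

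The same family supplied 7 of the 10 probes that rose in AAA relative to no AAA, where a call means an adjusted p under 0.05 in the limma fit of all 18 arrays. Of these 10, only IGHV1S63 and IGHV8S9 reached 5 detections without the AAA arrays. The others met the detection rule through AAA arrays, so their adjusted p values describe selected probes and lend no weight to a group difference. IGHV1S63 read 1.02, 1.09, 3.60, 2.86 and 1.76 in AAA 1 to 5. It ran from -0.46 to 0.41 (median 0.01) in no AAA, where 1 of 7 arrays detected it, and from -0.27 to 3.96 (median 0.30) in saline. Every AAA aorta lay above every no AAA aorta, while saline 2 lay above all AAA aortas. AAA exceeded no AAA by 2.12 (SE 0.58, adjusted p = 0.014, limma).

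IGHV1S13 and IGHV1S35 were likewise high in AAA 3, AAA 4 and saline 2. IGHV1S13 read 0.79, 1.12, 3.16, 2.59 and 1.88 in AAA, -0.44 to 0.87 (median -0.18) without AAA and -0.16 to 3.53 (median 0.00) in saline. Here no AAA 2, at 0.87, exceeded the lowest AAA aorta. The AAA minus no AAA difference was 2.02 (SE 0.53, adjusted p = 0.011, limma), the smallest adjusted p of the 30. IGHV1S35 read 0.65, 0.94, 3.15, 2.56 and 1.53 in AAA, -0.31 to 0.38 (median -0.15) without AAA and -0.25 to 3.40 (median 0.22) in saline. Its difference was 1.84 (SE 0.51, adjusted p = 0.015, limma), with no overlap between AAA and no AAA.

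A further 4 called IGHV1 probes were not detected on any no AAA array, so their differences are lower bounds, formed from the mean of the AAA arrays against the lowest signal each no AAA array could detect. Here and below, an adjusted p beside a bound comes from the fit of the measured readings, and the bound itself was not tested. IGHV1S120 was detected on 5 of 5 AAA arrays at 0.32, 0.59, 2.65, 2.03 and 1.1, and AAA was at least 2.24-fold higher (adjusted p = 0.016, limma). IGHV1S53 was also detected on each AAA array, at 0.18, 0.28, 0.97, 1.96 and 0.21, and AAA was at least 1.46-fold higher (adjusted p = 0.020, limma). IGHV1S1 and IGHV1S6 were detected on 3 AAA arrays each and had bounds of at least 1.30-fold and 1.26-fold (adjusted p = 0.025 and 0.048, limma). For IGHV1S120 and IGHV1S53 the AAA and no AAA aortas did not overlap, while for IGHV1S1 and IGHV1S6 the lowest AAA readings were not detected and have no order against those of no AAA. In these 4 probes saline 2 lay inside or above the AAA range at 2.89, 1.47, 0.71 and 1.82. IGHV1S105, IGHV1S31, IGHV1S36 and IGHV1S3 had differences of 0.24 to 0.92 between AAA and no AAA, IGHV1S4, undetected in no AAA, was at least 1.26-fold higher in AAA, and none of these passed.

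IGHV12S1 was high in saline 1 as well as in saline 2, AAA 3 and AAA 4. It read 0.66, 1.05, 3.14, 3.52 and 0.78 in AAA and -0.22 to 0.14 (median 0.07) in no AAA, where no array detected it. In saline it read 3.11 and 3.58 in mice 1 and 2 and 0.03 to 0.50 in the other 4. AAA was at least 3.16-fold higher than no AAA (adjusted p = 0.042, limma), and the AAA and no AAA aortas did not overlap. The AAA levels of IGHV11S1, of the other family tied to B-1 cells, were 0.11, 0.17, 0.89, 1.67 and -0.13, it was not detected in no AAA, and it reached 1.66 and 1.20 in saline 1 and 2. Its AAA over no AAA bound was 1.29-fold, and it did not pass (adjusted p = 0.12, limma).

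The IGHV8 family had 2 called probes of 4. IGHV8S9 read 0.63, 0.59, 1.89, 2.38 and 0.94 in AAA, -0.02 to 0.35 (median 0.22) without AAA and -0.30 to 2.50 (median 0.04) in saline. It was among the few that most no AAA arrays detected (5 of 7), and AAA exceeded no AAA by 1.12 (SE 0.38, adjusted p = 0.047, limma) without overlap. IGHV8S4 read 0.04, 0.35, 1.08, 2.05 and 1.44 in AAA and -0.09 to 0.37 (median 0.08) in no AAA, with an overlap through AAA 1 and 2. Its difference was 0.92 (SE 0.25, adjusted p = 0.014, limma). IGHV8S6 and IGHV8S7, undetected in no AAA, had bounds of 1.67-fold and 1.61-fold and missed the threshold (adjusted p = 0.058 and 0.081, limma).

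**Figure D3:**
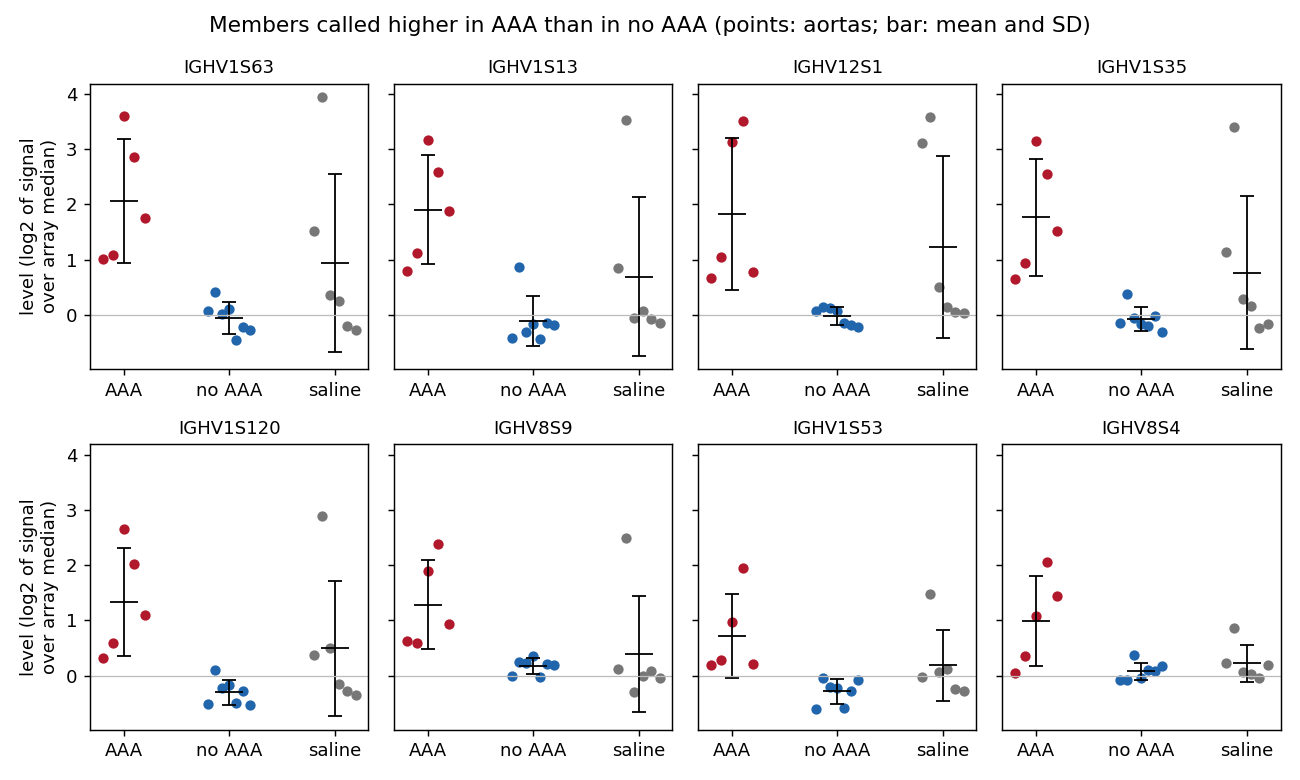
Level (log2 of signal over array median) of the 8 probes with the largest differences among the 10 called between AAA and no AAA, with 1 point per aorta and the mean and SD of each group (5 AAA, 7 no AAA, 6 saline). In the saline panels 1 or 2 aortas reach or pass the AAA levels while the others lie lower.

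In the remaining families no probe passed between AAA and no AAA, and the highest levels were those of single aortas. IGHV5S17, of the second most numerous family here, read -0.03, 0.71, 4.47, 2.44 and 0.60 in AAA and 3.06 and 1.18 in saline 2 and 3. Its difference from no AAA was 1.53 (SE 0.60, adjusted p = 0.084, limma). IGHV3S2 read 4.88 in saline 2, against 0.83 or less in the other 5 saline aortas and at most 1.29 in AAA. IGHV14S1 read 4.47 in saline 2, -0.04 to 0.14 in the other saline aortas and 0.45 to 2.34 in AAA, without overlap with no AAA (1.40, SE 0.59, adjusted p = 0.10, limma). IGHV6S4 read 3.09 in saline 1 and 1.08 in saline 2, and no more than 0.58 elsewhere. IGHV9S6 reached 3.12 in saline 2 and 2.69 in AAA 3, and 0.89 in no AAA 3. IGHV10S3 ranged from 0.01 to 1.55 in AAA and IGHV2S4 from -0.14 to 1.16, and both overlapped no AAA. IGHV14S2 and IGHV5S18 differed by 0.84 and 0.22 between AAA and no AAA, and IGHV5S14 and IGHV5S21, undetected in no AAA, were at least 1.61-fold and 1.23-fold higher in AAA, all short of the threshold.

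Over the 30 probes, AAA against no AAA gave differences from 0.22 to 2.12 with a median of 0.92, or 0.72 with the 12 undetected in no AAA at their bounds, beside -0.01 for all tested probes. Higher calls numbered 10 of 30, where 10.8% of all tested probes were called higher, and lower calls 0, where 8.46% were called lower. At the threshold named in the methods, 2-fold and an unadjusted p under 0.05, 12 of 30 were higher in the same fit, where the background was 2.36%. All AAA aortas lay above all no AAA aortas for 11 of 30, where the background was 3.98%, but 4 of these 11 were undetected on at least 1 AAA array and on all no AAA arrays, so that their lowest readings have no order. These shares lie above the backgrounds, but the detection rule favoured probes high in AAA. Tested with the unequal-variance t-test of the methods, 0 of 30 passed after adjustment, where 2.21% of all tested probes were called higher. An unadjusted p under 0.05 was held by 12, for which no background was taken. Leaving out AAA 3 left 3 calls of 30 (background 7.73%) and leaving out AAA 4 left 5 (background 12.3%). Leaving out saline 2, which sets part of the common spread, gave 21 (background 10.9%). The calls of IGHV12S1, IGHV8S9 and IGHV1S6 were lost in 9, 14 and 14 of the 18 fits that left out 1 array (adjusted p up to 0.13, 0.13 and 0.12, limma). Without AAA 3 the calls of IGHV1S63, IGHV1S35, IGHV1S120 and IGHV1S53 were lost (adjusted p = 0.057, 0.061, 0.064 and 0.058), IGHV1S53 and IGHV1S1 lost theirs without AAA 4 (0.053 and 0.051), and IGHV1S1 also without AAA 2 (0.061). IGHV1S13 and IGHV8S4 passed in each of these fits.

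BeadChip 3 carried no AAA 7 beside the AAA arrays, BeadChip 2 carried no AAA 1 to 6, and BeadChip 1 carried the saline arrays. On BeadChip 3 alone the AAA mean exceeded no AAA 7 for 30 of the 30 probes (background 53.1%), and all 5 AAA aortas exceeded it for 24 (background 29.3%). That array detected only 4 of the 30 and had the lowest median over them of all 18 arrays (-0.14), so these counts set most probes against an undetected reading and no size is given. BeadChip as a fixed block gave a fit of 12 arrays that rests on no AAA 7. In it 0 of 30 passed in limma, where 4.82% of all tested probes were called higher. An unadjusted p under 0.05 was held by 10, for which no background was taken.

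The AAA and saline aortas overlapped for all 30 probes. Of the 30 probes 28 had a higher mean in AAA, as did 14590 of the 21434 tested probes. The median difference was 0.52, beside 0.13 over all tested probes. Only 1 was called higher, where 30.5% of all tested probes were called higher and 9.22% lower. That probe was IGHV8S4, with 0.86 in saline 2 and -0.05 to 0.23 in the other saline aortas. AAA exceeded saline by 0.77 (SE 0.26, adjusted p = 0.022, limma), and the call was lost without AAA 4 (adjusted p = 0.068) and without AAA 5 (adjusted p = 0.063). IGHV1S13, IGHV1S63 and IGHV1S35 had the largest differences, 1.22, 1.13 and 1.00 (adjusted p = 0.082, 0.14 and 0.14, limma). IGHV3S2 and IGHV6S4 had lower means in AAA than in saline, by -0.42 and -0.37 (adjusted p = 0.61 and 0.56, limma). Without saline 2 there were 16 calls, given without the share of all tested probes called in that fit. The median difference of 0.52 was 0.19 without AAA 3 and 0.20 without AAA 4, and 0.33 to 0.78 with 1 saline aorta left out, so this comparison turned on single aortas of both groups.

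Between no AAA and saline, 28 of 30 means were lower in no AAA, as were 6208 of the 21434 means of all tested probes. The median difference was -0.58, or -0.29 with undetected probes at their bounds, beside 0.15 over all tested probes. In limma 0 were called in either direction, where 10.1% of all tested probes were called lower and 35% higher. A lower mean in no AAA with an unadjusted p under 0.05 was found for 2, and for 2545 of the 21434 tested probes. The differences furthest from 0 were those of IGHV1S119 (-1.47, SE 0.76, adjusted p = 0.12), IGHV12S1 (saline at least 2.09-fold higher, adjusted p = 0.088) and IGHV3S2 (-1.12, SE 0.56, adjusted p = 0.11). In each of these the higher saline mean came from saline 1, saline 2 or both, and saline 3 to 6 lay at or below 0.77. Without saline 2 the median difference was -0.22. No BeadChip held saline beside another group, so BeadChip and group cannot be told apart in either comparison with saline.

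**Figure D4:**
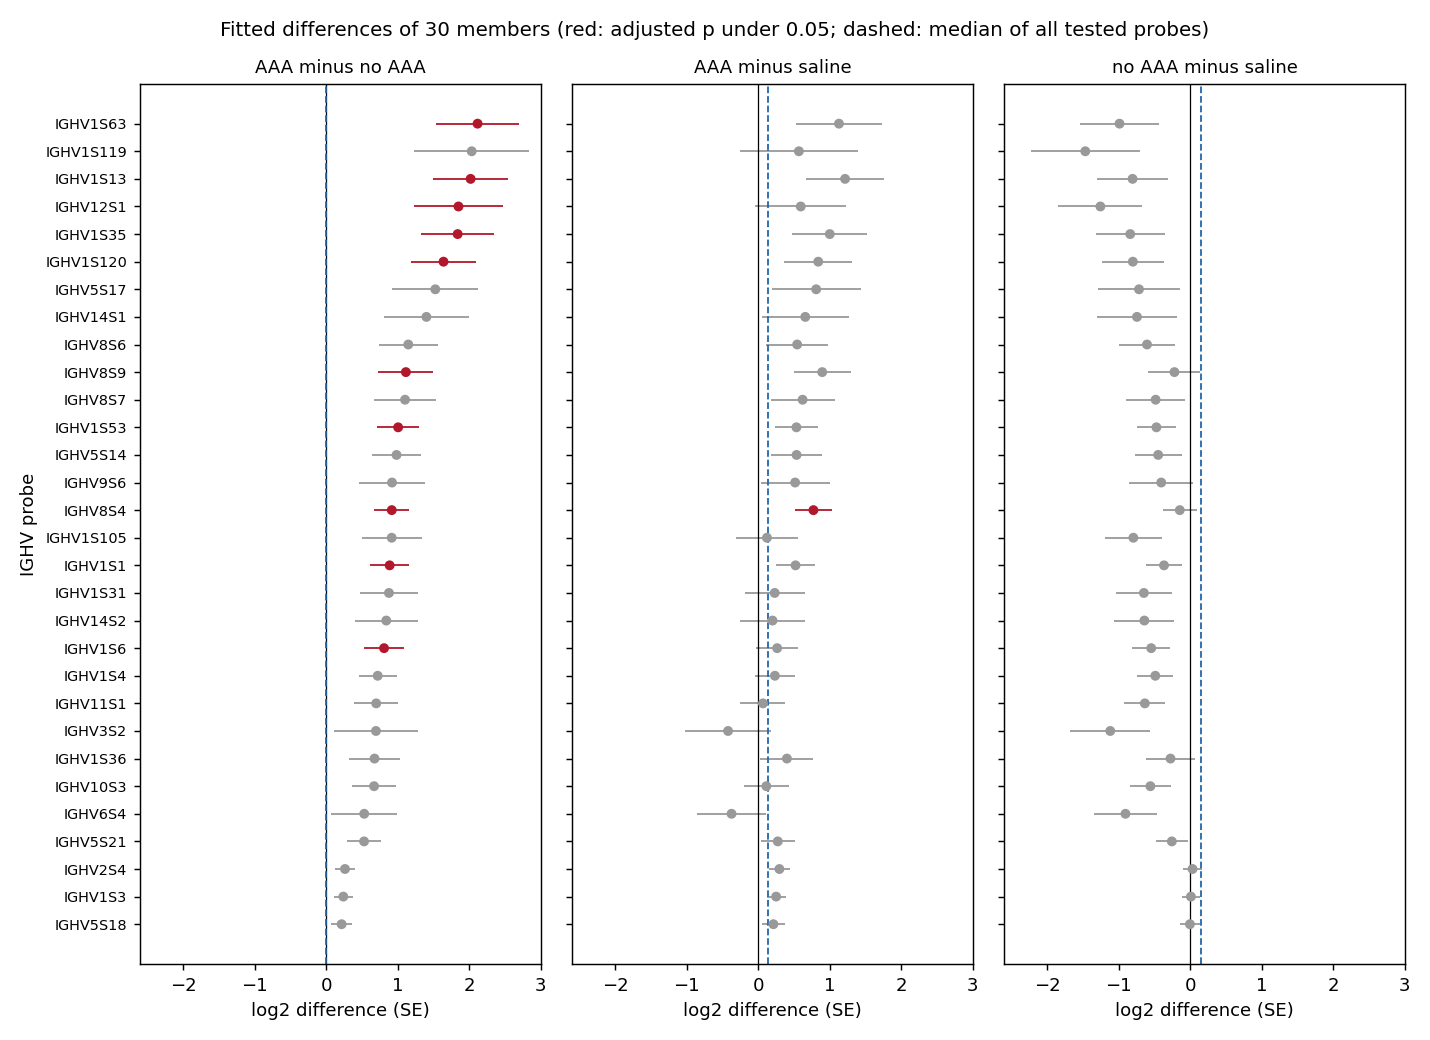
Fitted log2 differences (points) with SE (bars) of the 30 IGHV probes in the 3 comparisons, ordered by the first. Red points passed an adjusted p of 0.05 (10, 1 and 0 probes), and dashed lines mark the median of all tested probes (-0.01, 0.13 and 0.15). Probes undetected in a group are drawn at their fitted values, which the text gives as bounds.

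AAA 3, AAA 4 and saline 2 were the 3 highest arrays for 21 of the 30 probes, though single probes differed between them. Saline 1 was high for fewer probes, and partly for others. Of the pairs saline 1 with 2, AAA 3 with 4 and AAA 4 with saline 2, the first differed by over 1 log2 unit for the most probes. In saline 1 only 7 probes exceeded 1 log2 unit, among them IGHV1S119 (4.72), IGHV12S1 (3.11), IGHV6S4 (3.09) and IGHV1S105 (1.88), whereas IGHV14S1, at 4.47 in saline 2, read 0.06. Saline 2 was higher for 27 of 30 probes, and IGHV6S4, IGHV1S119 and IGHV11S1 were the exceptions. Between AAA 3 and AAA 4 there were 13 probes higher in AAA 3 and 17 in AAA 4, with a difference over 1 log2 unit for 3 of them. IGHV5S17 stood 2.03 higher in AAA 3, and IGHV1S1 1.61 higher in AAA 4. Over all 25 IGHV5 probes, passed or not, 12 exceeded 1 log2 unit in AAA 3, 7 in AAA 4, 10 in saline 2 and 0 in saline 1. For the 70 IGHV1 probes these numbers were 16, 18, 18 and 6. Whether related segments were read by the same RNA was not tested.

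**Figure D5:**
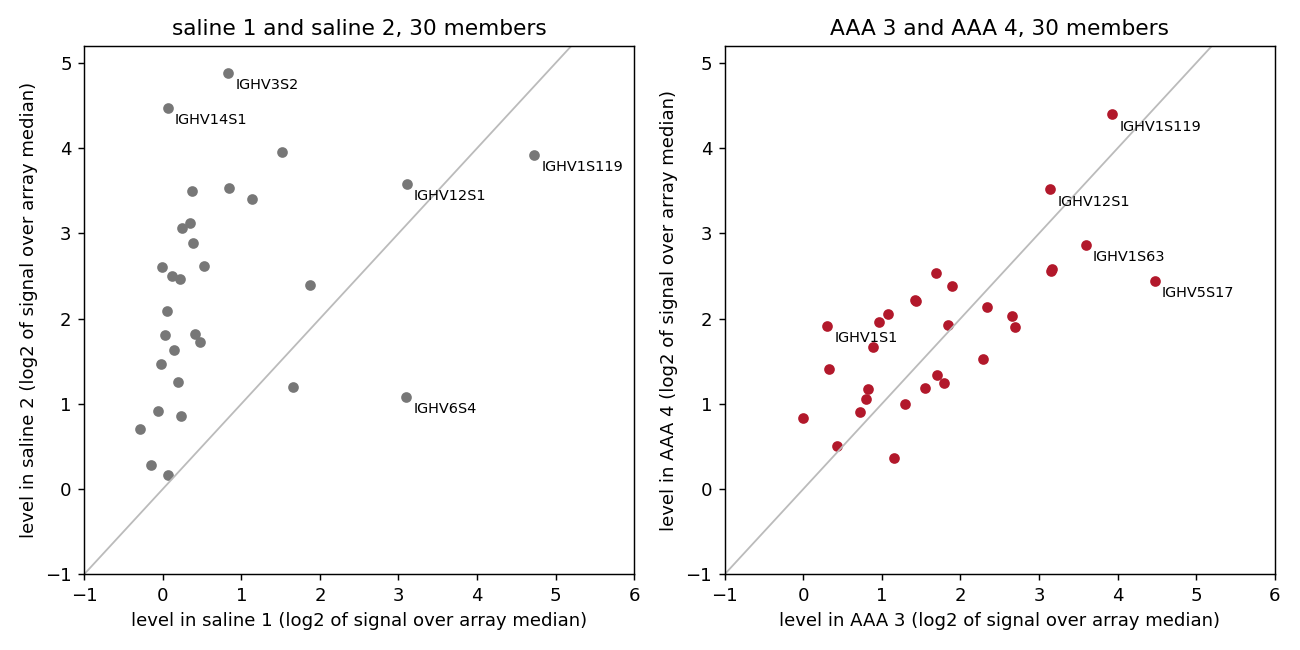
Level (log2 of signal over array median) of the 30 IGHV probes in saline 1 against saline 2 (left) and AAA 3 against AAA 4 (right), with the line of equal levels. On the left most points lie near 0 in saline 1 and reach up to 4.88 in saline 2, and on the right the points lie around the line from near 0 to 4.47.

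Other immunoglobulin probes, among them IGHM, IGHG2C and kappa variable probes, were high in the same aortas. The named plasma cell genes Sdc1 and Irf4, given below, did not share this order of aortas, although Irf4 was highest in saline 1. IGHM, the constant region of IgM, was detected on all 18 arrays and read 3.66, 3.25, 4.22, 5.23 and 3.19 in AAA and 1.26 to 2.97 among no AAA aortas. Saline aortas spanned 1.56 to 6.63, with 4.76 in saline 1 and 6.63 in saline 2. AAA exceeded no AAA by 1.70 (SE 0.66, adjusted p = 0.078, limma). IGHG2C, the constant region of an IgG subclass, read 5.33 in AAA 3, 4.82 in saline 1, 4.53 in saline 2 and 2.87 in AAA 4, and no more than 1.51 elsewhere. IGHG2C was undetected on all no AAA arrays, so no size is given for its higher call in AAA relative to no AAA (adjusted p = 0.044, limma). IGKC, the kappa constant region, was also called higher (3.68, SE 0.84, adjusted p = 0.0050, limma), and IGHA was not (0.21, adjusted p = 0.14, limma). Of 3 tested lambda constant probes 1 was called higher. The IGHD and IGHG1 constant probes were below the detection rule. Of 145 kappa variable (IGKV) probes 49 met the detection rule, of which 25 were called higher in AAA relative to no AAA, where 10.8% of all tested probes were, under a rule that favoured probes high in AAA. Their array medians were 3.85 in AAA 3, 3.76 in saline 2 and 3.00 in AAA 4 but 0.85 in saline 1.

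Of 49 genes on 8 lists of B lineage, T cell, smooth muscle and fat genes, 16 had a probe with a gene name here, each named because the study had listed it as different. Of 11 B cell markers only Cd79b, a part of the B cell receptor, could be read, at 1.40 to 2.92 among AAA aortas, 0.65 to 1.36 without AAA and 0.91 to 4.40 after saline, where saline 2 was highest and saline 1 next at 2.76. Of 9 plasma cell markers 2 were named. Sdc1, a surface proteoglycan also made by other cells, exceeded its no AAA level in AAA by 0.99 (SE 0.20, adjusted p = 0.0024, limma). It was lowest of all 18 arrays in saline 2 (0.74). Irf4 was highest of all 18 arrays in saline 1 (3.45) and read 2.25 in saline 2. Among AAA aortas it was highest in AAA 4 (2.13) and read 1.42 in AAA 3. Irf4 did not pass between AAA and no AAA (0.36, adjusted p = 0.37, limma). Against saline Irf4 was lower, by -1.03 in AAA and -1.39 in no AAA (adjusted p = 0.0045 and 0.00020, limma). Sdc1 was higher than in saline, by 1.78 in AAA and 0.79 in no AAA (adjusted p = 5.6e-06 and 0.0030, limma). Of 6 T cell markers Cd3d was named and was also highest in saline 2 (3.37, against 0.41 to 1.40 in the other saline aortas). Mki67, a proliferation marker and the only named gene of 3 on the germinal centre list, rose in AAA relative to no AAA, by 1.11 (SE 0.25, adjusted p = 0.0048, limma). Among B cell chemokine and survival genes, Cxcl13, the B cell attractant, was 1.15 higher in AAA relative to no AAA (SE 0.36, adjusted p = 0.028, limma). Because the study listed these genes for their differences, their calls are no independent evidence. None of the 5 recombination and surrogate light chain genes was named, and 1 of 5 smooth muscle and 4 of 4 fat genes were. Acta2, the actin of smooth muscle, ranged over 2.74 to 4.62 among AAA aortas, 3.34 to 4.05 after saline and 4.85 to 5.39 without AAA. It was lower in AAA than without by -1.12 and higher in no AAA than in saline by 1.34 (adjusted p = 0.0026 and 0.00011, limma). Adipoq, a hormone of fat cells, ranged over 6.88 to 7.49 among AAA aortas, 7.76 to 8.40 after saline and 5.27 to 7.27 without AAA. All 4 fat genes were called lower than in saline in both infused groups, Adipoq by -0.93 in AAA and -1.57 in no AAA, and none differed past the threshold between AAA and no AAA (0 of 4, adjusted p from 0.078 to 0.87, limma). The part of cell content in the IGHV levels was not tested.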

How the data were processed

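Whole aortas of 18 mice were profiled on Illumina Mouse WG-6 version 1.1 BeadChips. The authors deposited, from BeadStudio 2.3.41 without normalisation, a bead-averaged signal intensity, its bead error and a detection score for each probe and array. Of the same table, a further 90 columns of values per array were not used. Arrays were assigned through the array number in the sample labels. The deposited matrix of ratios was not used, because 12 of its 18 columns held another array than their label names.

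Lines of 4 bacterial controls were dropped, and repeated probe names were averaged. Signal intensity was divided by the array median and put on a log2 scale, and 21434 of 46624 probes detected (score above 0.95) on at least 5 arrays were tested. Detected probes per array ranged from 18647 to 19661 for saline, from 19438 to 20676 for no AAA and from 20057 to 21052 for AAA, and the number of arrays limits the precision. Limma 3.58.1 (R 4.3.3, trended eBayes) fitted 3 group means, with Benjamini-Hochberg adjustment over all tested probes. The fit assumes 1 spread per probe in all groups. Alternatives were the methods' t-test, quantile and normexp (offset 16) processing, other probe filters, the 2 groups alone, BeadChip and replicate blocks (statmod 1.5.0), array weights, the methods' threshold and each array left out. Tables and figures used Python with pandas, numpy and matplotlib.

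The IGHV probes, gene lists, tests and naming rule were chosen with earlier results of these data known. Probes were named if called (the 8 largest differences in full) or if highest on average in their family. Those just inside or outside the detection rule were given as counts and ranges. The others were named after their values were seen. Gene names of the list genes came from the study's additional files. No probe sequence or IGHV promoter was in the reference tables, so none is shown.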

Additional observations from a re-analysis of the deposited data

Results flagged for a closer look

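Among 19 named IGHV probes in 3 groups, 13 group values held an aorta far from the others of its group by Dixon's criterion, which chance meets in about 5% of groups. In 9 of the 13 this aorta was saline 2, for IGHV3S2 (4.88), IGHV14S1 (4.47), IGHV1S13 (3.53), IGHV9S6 (3.12), IGHV1S120 (2.89), IGHV8S9 (2.50), IGHV1S6 (1.82), IGHV1S53 (1.47) and IGHV8S4 (0.86). Over the 30 probes saline 2 stood apart in this way for 17. In no AAA the aortas that stood apart lay at lower levels, no AAA 2 for IGHV1S13 (0.87) and IGHV1S35 (0.38), no AAA 3 for IGHV9S6 (0.89) and no AAA 5 for IGHV1S6 (-0.12). Among the 5 aortas with AAA none stood apart for any of the 30 (0 of 30). Values of 1 group are not independent between probes, because the same aorta recurs.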

How the results depend on the processing

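No IGHV probe was detected on all 18 arrays, so the filter that asks for this gave no value. For AAA against no AAA, where 10 were called, the count was 0 with the methods' t-test and 0 with BeadChip as a fixed block. It was 3 with normexp, 17 with the 2 groups alone and 3 to 21 with 1 array left out. These were 3 without AAA 3, 5 without AAA 4 and 21 without saline 2. Of all tested probes, 2.21% were called higher with the t-test, 4.82% with the fixed block, 0.205% with normexp and 9.21% with the 2 groups. Without AAA 3, AAA 4 and saline 2 these shares were 7.73, 12.3 and 10.9%. The replicate block left 4 (background 8.22%). Replicate numbers did not pair arrays, as same-number correlations ran from -0.19 to 0.29, and the block moved no other count by over 1.5 times. For AAA against saline, where 1 was called, the count was 0 with the t-test, 0 with the 2 groups alone, 0 with a random BeadChip block, 3 with normexp (2 of them lower) and 0 to 16 with 1 array left out (0 without AAA 4 or AAA 5, 3 without AAA 1, 16 without saline 2). For no AAA against saline, where 0 were called, it was 2 with the 2 groups alone, 24 with normexp (all lower, where 61.3% of all tested probes were called lower), 1 at the methods' threshold and 0 to 2 with 1 array left out (2 without saline 6, 1 without AAA 4). Except for that normexp count, the counts of both comparisons with saline are given without the share of all tested probes. They show only how far the calls moved. Normexp moved the median of all tested probes to -1.12 for AAA and -1.21 for no AAA against saline. The 30 probes lay above those medians, at -0.02 and -0.91, and IGHV1S63 (-0.0343) and IGHV1S35 (-0.0145) turned sign against saline. In AAA against no AAA none of the 10 called probes turned sign in 270 alternative values, but 90 of these no longer passed. The t-test, the fit without a filter, the 2 groups alone and each saline array left out keep the same difference. In those settings the sign could not turn, so this count is no test of direction. Most IGHV signals lay near background, which limits low levels to bounds.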

Other observations

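Of the 106 IGHV probes outside the detection rule, 13 exceeded 2 log2 units on at least 1 array, all of them highest in AAA 3 (7), AAA 4 (2), saline 1 (1) or saline 2 (3). Of the 7 led by AAA 3, 6 were IGHV5 probes, with IGHV5S6 at 4.13 and IGHV5S23 at 3.99 there. IGHV15S1 was detected on 1 array alone, AAA 3 at 3.36, with -0.12 or less on the others. In saline 1 the kappa variable probes IGKV3-2 and IGKV3-9 read 5.35 and 5.15, while the median of the 49 tested kappa variable probes was 0.85 there. The probes of this paragraph were picked after their values had been seen, and no test was made on them.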
